A study of Mus musculus with 9 samples.

Results

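Elastic fibres give skin its recoil. They hold a core of cross-linked elastin laid down on microfibrils, which are polymers of the large glycoproteins fibrillin, and a group of smaller proteins joins the core to the microfibrils and both to the cell. In newborn skin dermal fibroblasts make these proteins, and microfibrils without much elastin also run from the dermis up to the basement membrane under the epidermis, where the laminin receptor CD49f (integrin α6, gene Itga6) is best known from keratinocytes.

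The set described here holds 10 genes, taken by their symbols. They are Eln (elastin), the fibrillins Fbn1 and Fbn2, the fibulins Fbln1, Fbln2 and Fbln5, the microfibril-associated proteins Mfap2, Mfap4 and Mfap5, and Emilin1, a glycoprotein of the border between elastin and microfibrils. All 10 had 1 row each among the 84809 gene rows measured, each row with 1 symbol, and all 10 were among the 20523 rows that reached 1 FPKM in at least 3 libraries. FPKM, the unit deposited, is fragments scaled to transcript length and to the library's mapped fragments, so levels of different genes can be set side by side.

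The 9 libraries came from dermal cells sorted by flow cytometry on CD49f into a CD49f-high, a CD49f-low and a CD49f-neg gate, with 3 libraries per gate. All were directly isolated, uncultured cells of newborn mice of 1 strain, Krt14 cre;Rosa26-mTmG, which carries a Cre recombinase under the keratin 14 promoter and a fluorescent reporter of Cre history. There was no group without these alleles, and the labels do not say whether the reporter was used in the sort. They call all 3 gates mesenchymal, and whether the replicates are different animals is not stated, so that a p-value measures the spread between these samples only. In bulk RNA of this kind, fewer cells of a type and less RNA per cell cannot be told apart.

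The sort showed in the sorted antigen's own transcript. Itga6 stood at 15.9, 19.6 and 24.1 FPKM in CD49f-high, at 6.05, 4.38 and 6.09 in CD49f-low, and at 0.710, 0.433 and 0.283 in CD49f-neg. The gates did not overlap. Their makeup differed in other ways as well. The 10 fibroblast markers, all above the filter, summed to 4389 to 6495 FPKM in CD49f-high, 5983 to 7240 in CD49f-low and 14127 to 17249 in CD49f-neg. Most of that sum was collagen, with Col1a1 at 2359 ± 594, 2485 ± 212 and 6505 ± 895 FPKM and Col3a1 at 1899 ± 368, 2187 ± 327 and 5310 ± 435 FPKM in the high, low and negative gates (SD, n = 3). The 12 markers of mural cells, the pericytes and smooth muscle of vessels, summed to 887 to 1600 FPKM in CD49f-high, 113 to 197 in CD49f-low and 55.3 to 68.5 in CD49f-neg. Rgs5, a pericyte marker, averaged 356 ± 98.0, 10.5 ± 9.69 and 0.249 ± 0.166 FPKM in that order of gates. Pigment cell markers summed to 8.91 to 17.6 FPKM in CD49f-high, 426 to 524 in CD49f-low and 2.63 to 4.05 in CD49f-neg. Dermal papilla markers, those of the mesenchyme at the base of the hair follicle, summed to 26.8 to 44.7, 187 to 212 and 41.0 to 51.5 FPKM. Schwann cell markers summed to 45.0 to 242, 44.7 to 61.3 and 2.26 to 4.78 FPKM, and keratinocyte markers to 25.3 to 56.4, 9.53 to 17.7 and 3.52 to 4.28. Endothelial markers stayed at or under 28.3 FPKM in sum, skeletal muscle markers at or under 59.8 and cartilage markers at or under 21.5. Of the muscle sum of 59.8, in CD49f-high replicate 1, 54.3 was Des, which is also on the mural list. Every other muscle marker had its highest mean in CD49f-low. In the immune list 9 of 10 markers stayed under 1 FPKM in each gate, and Cd52 and Tyrobp were at 0 in all 3 CD49f-neg libraries. Myod1 and Myf5 of muscle were also at 0 in CD49f-neg, and Matn1 of cartilage in CD49f-low and CD49f-neg. Acan, also on the cartilage list, averaged 9.48, 7.52 and 0.222 FPKM in the high, low and negative gates. What part these other cells had in the differences below was not tested.

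The comparisons asked how levels of elastic fibre transcripts differed with surface CD49f. Elastin, Mfap4, Fbn2, Mfap2, Fbln1, Fbln5 and, by a narrow margin, Fbn1 were lower in CD49f-high cells than in CD49f-neg cells. That made 7 of 10 genes called lower at a limma adjusted p under 0.05 and 0 called higher, while 8.27% of all rows tested were called lower and 13.9% higher. The 3 others (Fbln2, Mfap5 and Emilin1) did not pass this test, and by unadjusted p only Emilin1 of them was under 0.05. In CD49f-low against CD49f-neg cells 4 of 10 were called lower (Eln, Mfap4, Fbn2 and Fbn1) and 0 higher, against a background of 2.62% lower and 12.8% higher. In CD49f-high against CD49f-low cells 7 of 10 were called lower (Eln, Mfap4, Fbn2, Mfap2, Fbln1, Fbln5 and Fbln2) and 0 higher, against 10.5% lower and 5.93% higher. The 3 comparisons share their libraries in pairs, so they are given side by side and not as independent evidence. The fit behind these calls did not use the replicate numbers, and a fit with them as a block is among the alternatives below.

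The median log2 difference of the 10 genes was -1.28 in CD49f-high against CD49f-neg, where that of all rows was 0.072. It was -0.45 in CD49f-low against CD49f-neg, with 0.21 for all rows, and -1.07 in CD49f-high against CD49f-low, with -0.15 for all rows. These genes are abundant: the least of them averaged 10.4 FPKM over the 9 libraries, against a median of 2.79 for all rows tested. Among the 2961 rows at least as abundant as that, the shares called lower were 11.2%, 4.32% and 9.25% in the same 3 comparisons. All log2 differences are of log2(FPKM + 1), a scale on which weakly expressed genes appear to change less than they do.

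**Figure D1:**
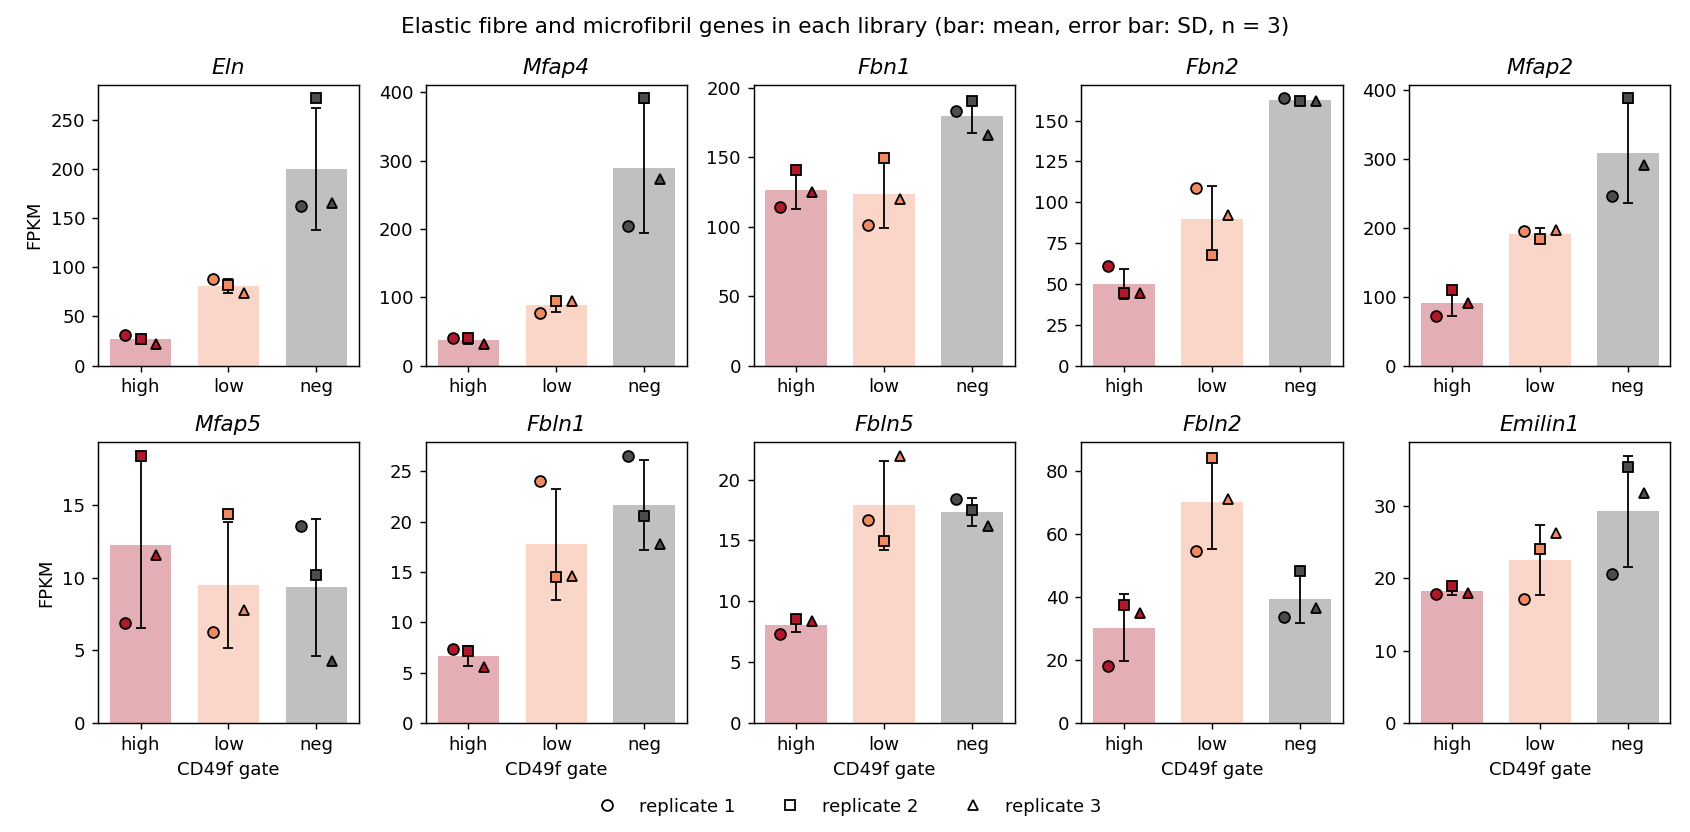
Level of each of the 10 genes in FPKM (vertical axes, from 0, a scale of its own per gene) in the CD49f-high, CD49f-low and CD49f-neg libraries; bars are means, error bars SD (n = 3), and marker shapes give the replicate number. Eln and Mfap4 step down without overlap at each gate of higher CD49f (means of 26.7, 81.3 and 200.04 FPKM for Eln), Fbln2 is highest in the low gate (70.1 FPKM), and Mfap5 overlaps in all 3.

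Elastin, the rubber-like core protein (row MERGE.36638, GRCm38 chromosome 5, 134702593 to 134747323, minus strand), had 31.4, 26.9 and 21.9 FPKM in CD49f-high, 88.1, 81.6 and 74.1 in CD49f-low, and 163, 272 and 166 in CD49f-neg. No library of one gate reached into the range of another. Its mean was 7.48-fold lower in CD49f-high cells than in CD49f-neg, a log2 difference of -2.83 (SE 0.21, limma adjusted p = 1.74e-05). The low gate lay between, at -1.25 against CD49f-neg (adjusted p = 0.00396) and with CD49f-high at -1.58 against it (adjusted p = 0.000858).

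Mfap4, a fibrinogen-domain protein that binds elastin and fibrillin (chromosome 11, 61485431 to 61488900, plus strand), went the same way as elastin. It had 40.4, 40.9 and 31.2 FPKM in CD49f-high, 76.5, 95.1 and 94.0 in CD49f-low, and 204, 391 and 273 in CD49f-neg. Here too the gates did not overlap, and CD49f-neg replicate 2 was highest for both genes. The difference was -2.87 (SE 0.22, adjusted p = 2.32e-05) between CD49f-high and CD49f-neg, a 7.72-fold lower mean. It was -1.65 (adjusted p = 0.00124) between CD49f-low and CD49f-neg and -1.22 (adjusted p = 0.00526) between CD49f-high and CD49f-low, all in limma's test. Of all pairs among the 10 genes, these were the closest in profile over the 9 libraries, with a root-mean-square difference of 0.249 log2 units once each was centred on its mean. Both kept all their calls in each of 17 alternative fits. A bordering gene on the other strand, Mapk7, shares 89 exonic bases with Mfap4 in GENCODE M21 and its row held 4.46 to 7.97 FPKM. In the same annotation Gm30003 shares 267 exonic bases with Eln and Gm26507 shares 129 with Fbn2, both from the other strand, and their levels were not analysed here. Strand is not stated in the labels, so reads from such pairs cannot be told apart.

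The fibrillins form the microfibril itself, and the set holds both paralogs. Fbn1, the main fibrillin of postnatal tissue (chromosome 2, 125300594 to 125507993, minus strand), had 114, 141 and 125 FPKM in CD49f-high, 101, 150 and 120 in CD49f-low, and 183, 191 and 166 in CD49f-neg. The high and low gates overlapped fully and both lay under CD49f-neg. The differences against CD49f-neg were small, at -0.51 for CD49f-high (SE 0.16, adjusted p = 0.0459) and -0.55 for CD49f-low (adjusted p = 0.0444), and these calls did not hold well. The first was lost in 8 and the second in 9 of 17 alternatives, the highest adjusted p being 0.131 and 0.129, and leaving out any CD49f-neg library ended both calls. CD49f-high minus CD49f-low was 0.044 (95% interval -0.31 to 0.40, limma adjusted p = 0.870). The opposite-strand gene Gm9913 shares 2442 exonic bases with Fbn1, but its row held at most 1.70 FPKM.

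Fbn2, the fibrillin best known from development (chromosome 18, 58008623 to 58209926, minus strand), was graded. It had 60.7, 44.3 and 44.6 FPKM in CD49f-high, 109, 68.0 and 92.0 in CD49f-low, and 164, 162 and 162 in CD49f-neg. The gates did not overlap. The 3 CD49f-neg libraries were nearly equal (SD 1.06), while the CD49f-low libraries spread widely (SD 20.5). Fbn2 changed by -1.70 (SE 0.18, adjusted p = 0.000165) between CD49f-high and CD49f-neg and by -0.88 (adjusted p = 0.0125) between CD49f-low and CD49f-neg. Its difference of -0.82 between CD49f-high and CD49f-low (limma adjusted p = 0.0138) lost its call when CD49f-low replicate 1 (0.0506) or 3 (0.0548) or CD49f-high replicate 3 (0.0512) was left out. Eln, Mfap4 and Fbn2 were the 3 of 10 called lower both in CD49f-low against CD49f-neg and in CD49f-high against CD49f-low, as were 0.507% of all rows and 1.28% of the equally abundant rows.

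**Figure D2:**
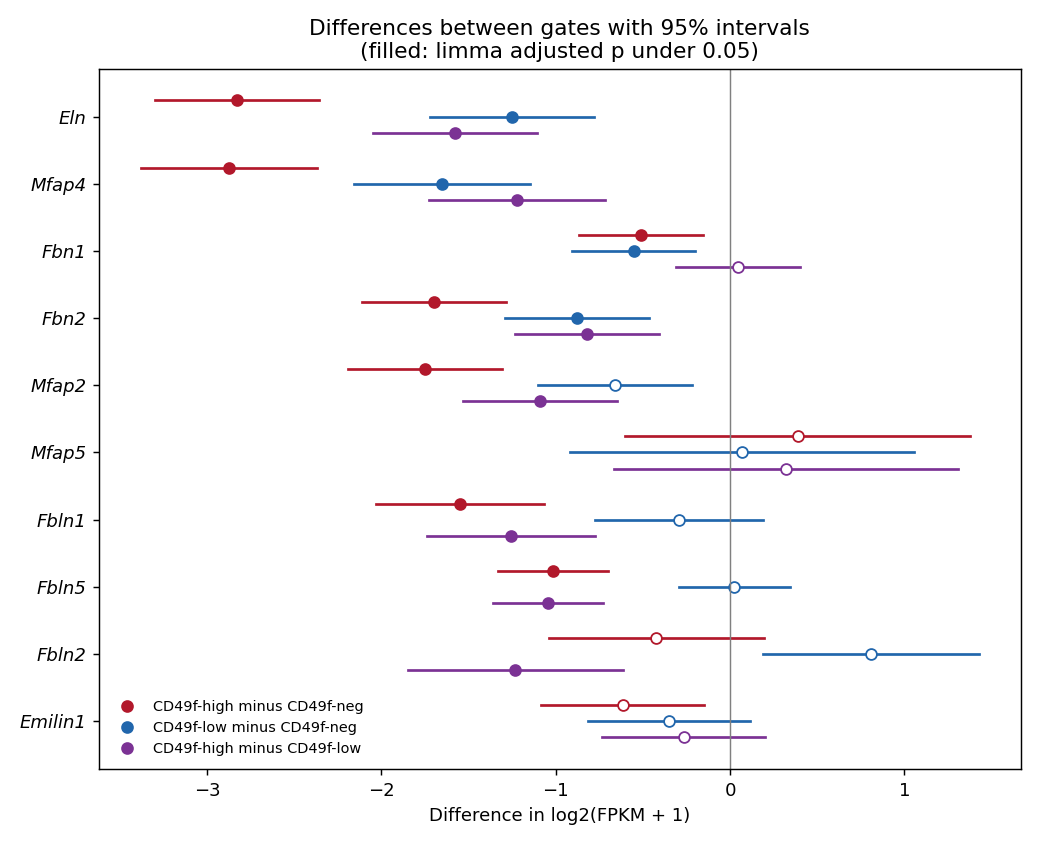
Difference in log2(FPKM + 1) between gates for each gene (horizontal axis) with its 95% interval from limma; red is CD49f-high minus CD49f-neg, blue CD49f-low minus CD49f-neg and purple CD49f-high minus CD49f-low, and filled points passed an adjusted p of 0.05. Points run from -2.87 for Mfap4 to 0.81 for Fbln2, and the widest intervals are those of Mfap5, which cross 0 in all 3 comparisons.

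Mfap2 and Mfap5 encode the paired small glycoproteins that bind fibrillin along the microfibril, and Mfap2 stood far above Mfap5 in every library. Mfap2 (chromosome 4, 141010418 to 141015984, plus strand) was among the most abundant of the set, with 71.7, 109 and 91.1 FPKM in CD49f-high, 195, 183 and 197 in CD49f-low, and 247, 388 and 292 in CD49f-neg. No gate overlapped another. It was lower in CD49f-high cells than in CD49f-neg by a log2 difference of -1.75 (SE 0.20, adjusted p = 0.000204) and lower than in CD49f-low by one of -1.09 (adjusted p = 0.00470). The difference of -0.66 between CD49f-low and CD49f-neg narrowly missed the limma threshold (adjusted p = 0.0502). It passed in 9 of 17 alternatives, among them the fit with the replicate number as a block (adjusted p = 0.0209).

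Mfap5 (chromosome 6, 122505845 to 122529290, plus strand) was the least abundant of the 10 in CD49f-low and CD49f-neg. It had 6.91, 18.4 and 11.5 FPKM in CD49f-high, 6.29, 14.4 and 7.79 in CD49f-low, and 13.6, 10.2 and 4.27 in CD49f-neg. The gates overlapped, and libraries of 1 gate differed by more than the gate means of 12.3, 9.499 and 9.34 FPKM did. CD49f-high minus CD49f-neg was 0.39 (95% interval -0.60 to 1.38, adjusted p = 0.596), and the other 2 differences were 0.067 (adjusted p = 0.927, CD49f-low against CD49f-neg) and 0.32 (adjusted p = 0.655, CD49f-high against CD49f-low). The interval of CD49f-high minus CD49f-neg holds no fall as large as that of Fbn2. Without CD49f-neg replicate 3, its lowest library, that difference turned to -0.037.

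The promoters of 3 genes are given because Fbln1, Fbln5 and Mfap2 were called in the same 2 comparisons, CD49f-high against each other gate. Each is the 250 bases before the RefSeq transcript start (GRCm38.p6), 5′ to 3′ on the gene's strand, and capitals mark matches on either strand to 6 motifs. These are the TATA box (TATAAA), the GC box (GGGCGG), the CCAAT box, the AP-1 site (TGANTCA), the TEAD site (GGAATG) and the short SMAD box (CAGAC).
Fbln1, chr15:85205699-85205948, plus strand: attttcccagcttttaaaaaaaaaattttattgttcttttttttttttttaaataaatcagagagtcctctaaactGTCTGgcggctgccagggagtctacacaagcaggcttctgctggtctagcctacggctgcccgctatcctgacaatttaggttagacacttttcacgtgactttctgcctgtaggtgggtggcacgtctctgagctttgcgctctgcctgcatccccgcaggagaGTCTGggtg
Fbln5, chr12:101819120-101819369, minus strand: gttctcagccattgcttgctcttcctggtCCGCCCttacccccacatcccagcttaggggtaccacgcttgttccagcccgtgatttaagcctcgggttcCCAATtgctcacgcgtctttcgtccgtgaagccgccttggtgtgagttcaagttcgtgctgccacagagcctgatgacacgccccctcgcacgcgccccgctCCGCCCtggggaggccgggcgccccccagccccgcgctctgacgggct
Mfap2, chr4:141010174-141010423, plus strand: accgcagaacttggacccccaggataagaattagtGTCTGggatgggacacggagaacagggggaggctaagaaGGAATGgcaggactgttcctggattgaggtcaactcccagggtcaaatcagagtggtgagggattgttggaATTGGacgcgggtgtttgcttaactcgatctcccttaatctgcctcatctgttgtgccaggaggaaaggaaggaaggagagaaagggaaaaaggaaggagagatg
The Fbln5 window held GGGCGG at 2 places and CCAAT at 1, and its GC content was 65.2%. The Fbln1 window held neither and had CAGAC at 2 places, with a GC content of 46.4%. In Mfap2 there was 1 match each to the CCAAT box, the SMAD box and the TEAD site, and the GC content was 51.2%. Of 32851 mouse promoters of the same length, 32.7% held GGGCGG, 33.8% CCAAT, 42.2% CAGAC and 12.6% GGAATG, so each of these is common. Promoters were matched for 6 of the 10 genes, with Fbn1, Fbln2 and Emilin1 the other 3, and Fbn2 was not looked up. None of the 6 windows held TATAAA (12.4% of all promoters), TGANTCA (6.75%) or GTCTAGAC (0.167%), which says only that these letters are not in these windows. CANNTG, found in 66.2% of promoters, was searched but is not capitalised.

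The fibulins are linker proteins of the matrix. Fbln1 and Fbln5 were called lower in CD49f-high against both other gates, and Fbln2 against CD49f-low. Fbln5, which tethers elastin to microfibrils and to integrins and whose loss in mice gives loose skin (chromosome 12, 101746565 to 101819055, minus strand), had 7.35, 8.52 and 8.34 FPKM in CD49f-high, 16.7, 14.97 and 22.0 in CD49f-low, and 18.4, 17.5 and 16.2 in CD49f-neg. CD49f-high lay apart, and the low and negative gates overlapped. It fell by 1.02 on the log2 scale in CD49f-high against CD49f-neg (SE 0.14, adjusted p = 0.000722) and by 1.04 against CD49f-low (adjusted p = 0.000952). CD49f-low minus CD49f-neg was 0.0255 (95% interval -0.29 to 0.34, limma adjusted p = 0.914), with a sign that turned under both other scalings (-0.25 and -0.14).

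Fbln1, found in elastic fibres and in basement membranes (chromosome 15, 85205949 to 85286535, plus strand), had 7.40, 7.11 and 5.55 FPKM in CD49f-high, 24.1, 14.5 and 14.6 in CD49f-low, and 26.6, 20.6 and 17.8 in CD49f-neg. CD49f-high was again the gate apart. Its difference was -1.55 (SE 0.21, adjusted p = 0.000717) between CD49f-high and CD49f-neg and -1.26 (adjusted p = 0.00348) between CD49f-high and CD49f-low. That between CD49f-low and CD49f-neg, -0.29, did not pass limma's test (95% interval -0.77 to 0.19, adjusted p = 0.365). For Fbln1 and Fbln5, the calls of CD49f-high against each other gate held in 17 of 17 alternatives.

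Fbln2, another fibulin of elastic fibres and basement membranes (chromosome 6, 91212455 to 91272540, plus strand), had the highest level in the low gate. It had 18.05, 37.6 and 35.1 FPKM in CD49f-high, 54.7, 84.3 and 71.3 in CD49f-low, and 33.7, 48.2 and 36.4 in CD49f-neg. All 3 CD49f-low libraries stood above those of both other gates, which overlapped. The difference of 0.81 between CD49f-low and CD49f-neg did not pass the limma threshold (SE 0.27, adjusted p = 0.0761), and of all rows 34.8% had CD49f-low above CD49f-neg without overlap. It passed with the replicate number as a block (adjusted p = 0.00844), in a fit of the 6 low and negative libraries alone, and when CD49f-high replicate 1 was dropped. CD49f-high minus CD49f-low was -1.23 (adjusted p = 0.0139), a call lost without CD49f-low replicate 2 (0.0542) or replicate 3 (0.0501). CD49f-high minus CD49f-neg was -0.42 (95% interval -1.04 to 0.19, limma adjusted p = 0.324).

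Emilin1, a glycoprotein of elastic fibres that also binds integrins (chromosome 5, 30913402 to 30921277, plus strand), varied less. It had 17.9, 18.9 and 18.04 FPKM in CD49f-high, 17.2, 24.1 and 26.3 in CD49f-low, and 20.7, 35.4 and 31.8 in CD49f-neg. CD49f-high did not overlap CD49f-neg, and CD49f-low overlapped both. The difference of -0.62 between CD49f-high and CD49f-neg missed the threshold in limma (SE 0.21, adjusted p = 0.0620). It passed with the replicate block (adjusted p = 0.0145), under both other scalings (0.0326 and 0.0322), and with replicate 1 of CD49f-neg (0.00895) or of CD49f-low (0.0448) dropped. The other 2 differences were -0.35 (CD49f-low against CD49f-neg, adjusted p = 0.264) and -0.27 (CD49f-high against CD49f-low, adjusted p = 0.417).

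Over the 3 gates together, limma's F test called 8 of 10 genes (28.5% of all rows), all but Emilin1 (adjusted p = 0.108) and Mfap5 (adjusted p = 0.723). Counting genes whose libraries did not overlap gave 8 of 10 lower in CD49f-high cells than in CD49f-neg (13.9% of all rows), 5 of 10 lower in CD49f-low cells than in CD49f-neg (5.77%) and 7 of 10 lower in CD49f-high cells than in CD49f-low (27.0%).

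The set as a whole was less abundant with more CD49f. Its FPKM summed to 376, 453 and 392 in CD49f-high, 689, 730 and 719 in CD49f-low, and 1073, 1536 and 1165 in CD49f-neg. Its order changed as well. In CD49f-high the order of mean FPKM was Fbn1, Mfap2, Fbn2, Mfap4, Fbln2, Eln, Emilin1, Mfap5, Fbln5 and Fbln1. There the first 3 each stood clear of the next, while Mfap4 overlapped Fbln2, Fbln2 overlapped Eln, Eln stood clear, and each of the last 4 overlapped its neighbour. In CD49f-low it was Mfap2, Fbn1, Fbn2, Mfap4, Eln, Fbln2, Emilin1, Fbln5, Fbln1 and Mfap5. There Mfap2, Fbln2 and Fbln1 stood clear of the next gene and all other neighbours overlapped. In CD49f-neg it was Mfap2, Mfap4, Eln, Fbn1, Fbn2, Fbln2, Emilin1, Fbln1, Fbln5 and Mfap5, where Fbn1, Fbn2 and Fbln5 stood clear of the next and all other neighbours overlapped.

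**Figure D3:**
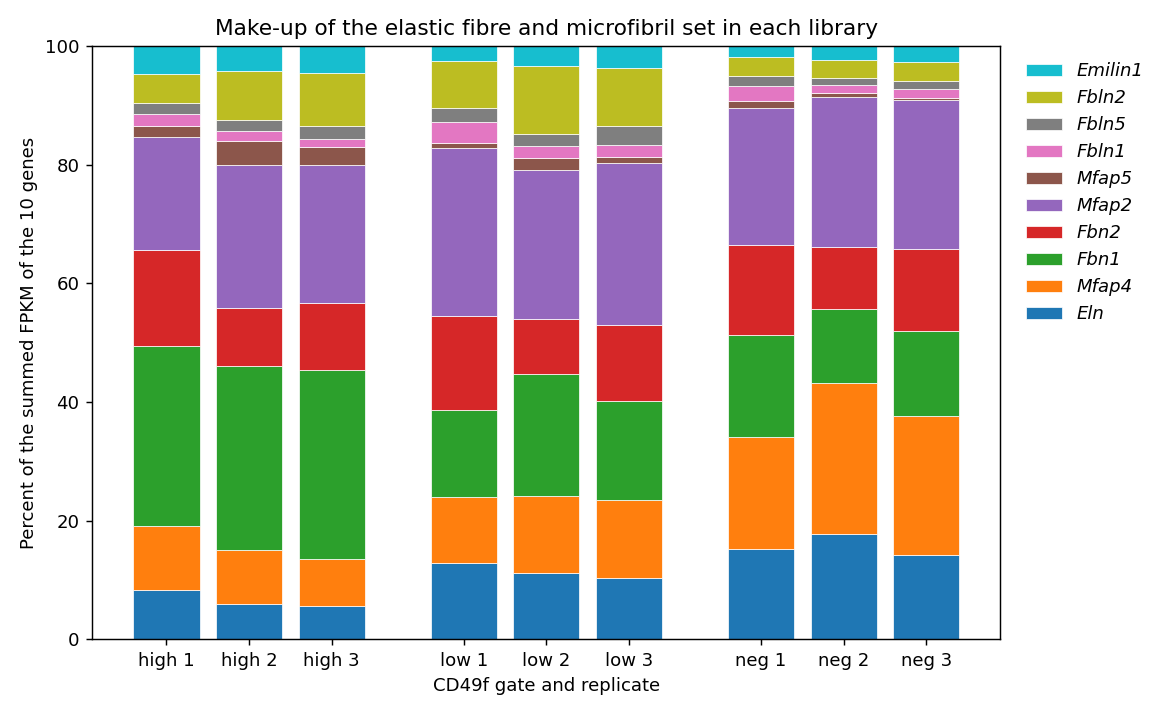
Percent of the summed FPKM of the 10 genes held by each gene (vertical axis), 1 bar per library, with the gates in the order high, low and negative. The Fbn1 band averages 31.1% in CD49f-high, 17.3% in CD49f-low and 14.6% in CD49f-neg, while the Eln and Mfap4 bands at the bottom widen in the opposite order.

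As a share of the set, Fbn1 held 30.3% to 31.8% in CD49f-high, 14.7% to 20.5% in CD49f-low and 12.4% to 17.1% in CD49f-neg, the last 2 overlapping. Elastin held 5.59% to 8.37%, 10.3% to 12.8% and 14.2% to 17.7% in the same order of gates, with no overlap. Mfap4 held 7.95% to 10.8%, 11.1% to 13.1% and 19.0% to 25.5%, also without overlap. The shares of Fbn2 overlapped over all gates, with means of 12.4% in CD49f-high, 12.6% in CD49f-low and 13.2% in CD49f-neg. Mfap2 held 19.1% to 24.1% in CD49f-high, 25.1% to 28.3% in CD49f-low and 23.0% to 25.3% in CD49f-neg, with the first 2 apart and CD49f-neg overlapping both. Emilin1 held more of the set in CD49f-high (4.18% to 4.76%) than in CD49f-low (2.49% to 3.66%) or CD49f-neg (1.93% to 2.73%), which overlapped. Fbln2 held 3.13% to 3.14% in the 3 CD49f-neg libraries, against 4.80% to 8.94% in CD49f-high and 7.94% to 11.6% in CD49f-low. Shares were not tested.

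Ratios within a library do not depend on that library's scaling. Elastin over Fbn1, the core protein over its scaffold, was 0.276, 0.191 and 0.176 in CD49f-high, 0.869, 0.544 and 0.617 in CD49f-low, and 0.886, 1.43 and 0.995 in CD49f-neg. The gates did not overlap, though CD49f-low replicate 1 came close to CD49f-neg replicate 1. The developmental fibrillin over the main one, Fbn2 over Fbn1, was 0.314 to 0.532 in CD49f-high, 0.453 to 1.07 in CD49f-low and 0.849 to 0.972 in CD49f-neg. Here CD49f-high lay clear of CD49f-neg, and CD49f-low overlapped both. Emilin1 over Eln was 0.569 to 0.823, 0.195 to 0.355 and 0.127 to 0.192 in CD49f-high, CD49f-low and CD49f-neg, without overlap. Fbln5 over Eln was 0.234 to 0.381, 0.184 to 0.296 and 0.0643 to 0.113, with CD49f-neg clear of both others, which overlapped. Mfap5 over Mfap2 was 0.0963 to 0.168, 0.0322 to 0.0787 and 0.0146 to 0.0551, so CD49f-high stood above both other gates. Fbln2 over Fbln1 was 2.44 to 6.32, 2.27 to 5.80 and 1.27 to 2.34, where CD49f-high lay above CD49f-neg and CD49f-low overlapped both. Mfap4 over Eln was 1.29 to 1.52, 0.868 to 1.27 and 1.25 to 1.65, where CD49f-high lay just above CD49f-low and CD49f-neg overlapped both. No ratio was tested.

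**Figure D4:**
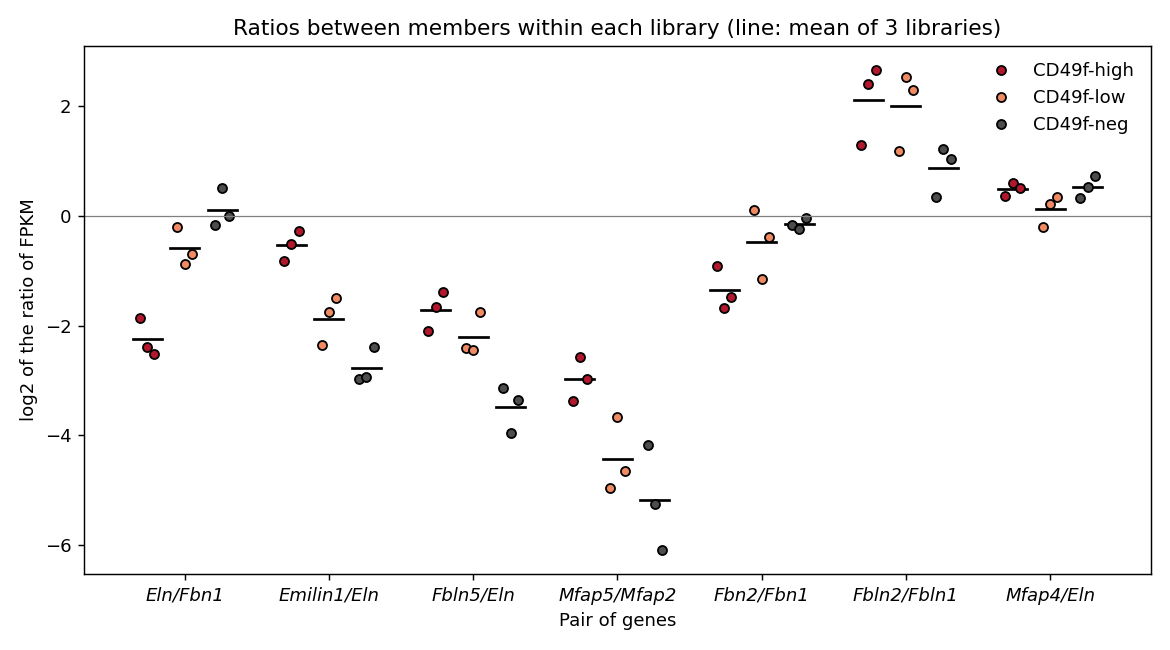
Ratio of FPKM between 2 genes of the set in each library, as log2 (vertical axis), for 7 pairs; red, orange and dark grey points are CD49f-high, CD49f-low and CD49f-neg, and lines are means of 3 libraries. Eln over Fbn1 averages -2.25, -0.59 and 0.11 in the 3 gates, while Mfap4 over Eln averages 0.49, 0.12 and 0.52.

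Of the 10 fibroblast markers, 9 had a lower mean in CD49f-high than in CD49f-neg and 8 a lower mean in CD49f-low than in CD49f-neg. Postn went the other way, at 262 FPKM in CD49f-high, 196 in CD49f-low and 170.1 in CD49f-neg, and Col6a3 was highest in CD49f-low, at 159 FPKM in CD49f-high, 254 in CD49f-low and 217 in CD49f-neg. The 10 genes were also set against these markers, a view chosen after the data were seen and given without a test. The mean log2 FPKM of the 10 markers was 7.14 in CD49f-high, 7.75 in CD49f-low and 8.58 in CD49f-neg. Relative to that mean, Eln and Mfap4 were still lower in CD49f-high cells than in CD49f-neg by log2 differences of -1.44 and -1.47, with no overlap. Fbn2, Fbln1 and Mfap2 differed by -0.28, -0.25 and -0.32, and for all 3 the gates overlapped. Fbn1 (0.93), Fbln2 (1.00), Emilin1 (0.80), Fbln5 (0.33) and Mfap5 (1.88) were higher in CD49f-high cells than in CD49f-neg on this scale, each without overlap. In CD49f-low against CD49f-neg, Mfap4 (-0.84) and Eln (-0.43) were lower and Fbln2 (1.65), Fbln5 (0.85) and Fbln1 (0.52) higher without overlap. The markers, 4 of 10 of them collagen genes, were not chosen as stable ones. Their mean itself differed by -1.44 in CD49f-high and by -0.83 in CD49f-low against CD49f-neg. Any gene that fell by less than that comes out higher on this scale, and the share of all rows that did was not computed. Without this reference, the median log2 difference of all rows was 0.072 and 0.21 in these comparisons.

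**Figure D5:**
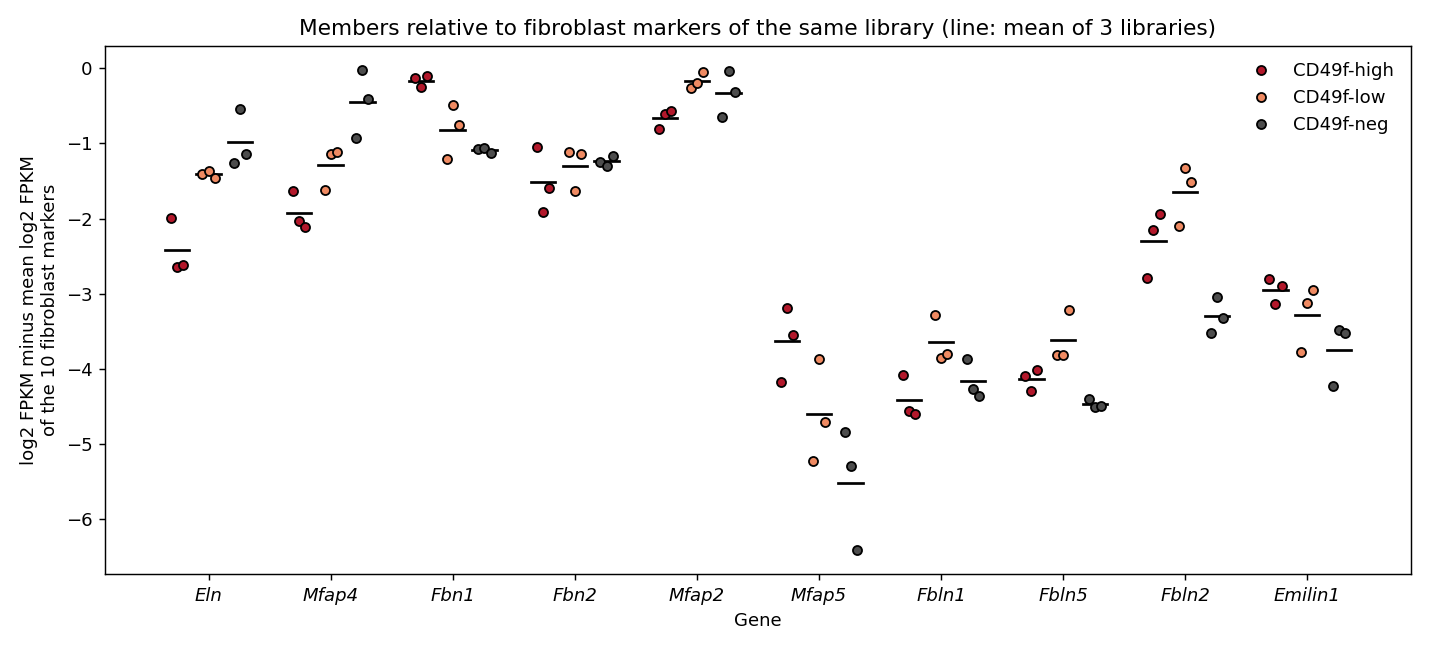
Level of each gene in log2 FPKM minus the mean log2 FPKM of the 10 fibroblast markers of the same library (vertical axis); red, orange and dark grey points are CD49f-high, CD49f-low and CD49f-neg, and lines are means of 3 libraries. The red points of Eln and Mfap4 stay below the grey ones (differences of -1.44 and -1.47), while those of Fbn1, Fbln2, Fbln5, Mfap5 and Emilin1 lie above them. The marker mean is itself lower in CD49f-high than in CD49f-neg, which raises every red point against the grey ones.

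Some other genes had profiles close to those of members. The measure was the root-mean-square difference of centred log2(FPKM + 1) over the 9 libraries, among 2692 named rows with at least 10 FPKM on average in 1 gate. Closest to Eln were Sulf2 (0.269), an extracellular sulfatase, Inhbb (0.273), an activin subunit, and Twist2 (0.284), a dermal transcription factor that is also on the fibroblast list. Closest to Mfap4 were Lgr5 (0.189), a Wnt pathway receptor, Ltbp2 (0.207) and Lox (0.274). Closest to Fbn1 were Tmed3 (0.107), Pofut2 (0.112), the enzyme that adds O-fucose to thrombospondin repeats, and C1qtnf6 (0.123). Atrnl1 (0.139), the serine protease Htra1 (0.176) and C1qtnf2 (0.180) came closest to Fbn2. For Mfap2 these were Igdcc4 (0.123), the collagen receptor Mrc2 (0.149) and the hedgehog co-receptor Boc (0.162). Fbln1 was nearest to the chemokine scavenger Ackr3 (0.117), Irx1 (0.153) and Arl4c (0.170), and Fbln5 to Cpxm1 (0.171), the hedgehog-binding protein Hhip (0.178) and Arhgap28 (0.183). Near Fbln2 were Slc27a3 (0.160), Pfn2 (0.189) and Vcan (0.289), the large proteoglycan versican. Mfap5 was nearest to Clec3b (0.167), Col14a1 (0.263) and Ctgf (0.283), and Emilin1 to Fkbp14 (0.126), Cacnb3 (0.128) and P3h4 (0.152). A small value says that profiles are alike over these libraries and no more.

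Lists of genes that work with the set were mixed. Their counts below stand beside 8.27% of all rows called lower and 13.9% higher in CD49f-high against CD49f-neg. These shares were 2.62% and 12.8% in CD49f-low against CD49f-neg, and 10.5% and 5.93% in CD49f-high against CD49f-low. The lists are short, and whether their counts differ from these shares was not tested. The lists' median log2 differences between CD49f-high and CD49f-neg were -0.42 for cross-linking and assembly, -0.045 for TGF-β and its binding proteins, -0.073 for other family members, -0.54 for ADAMTS proteins, 0.29 for receptors, -0.30 for proteases and -0.37 for proteoglycans and partners, against 0.072 for all rows.

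Enzymes that cross-link elastin were called in both directions. Of 10 genes of cross-linking and assembly, 3 were called lower and 2 higher in CD49f-high cells than in CD49f-neg, 2 lower and 0 higher in CD49f-low cells than in CD49f-neg, and 2 lower and 2 higher in CD49f-high cells than in CD49f-low. Lox, the lysyl oxidase that oxidises lysines of elastin and collagen, had 36.6, 36.9 and 27.0 FPKM in CD49f-high, 68.9, 70.5 and 54.3 in CD49f-low, and 198, 230 and 178 in CD49f-neg. It differed by -2.56 between CD49f-high and CD49f-neg (limma adjusted p = 9.07e-06). Loxl1, the lysyl oxidase tied to elastic fibre upkeep, averaged 38.1 ± 5.92 FPKM in CD49f-high, 46.1 ± 10.5 in CD49f-low and 122 ± 14.5 in CD49f-neg. Its drop was at the first step, at -1.40 for CD49f-low against CD49f-neg (adjusted p = 0.000923), and CD49f-high minus CD49f-low, at -0.26, did not pass (adjusted p = 0.372). Loxl4 was called lower in CD49f-high than in either other gate, at 1.48 FPKM against 6.17 in CD49f-low and 7.04 in CD49f-neg. Loxl3, another lysyl oxidase, was called higher in CD49f-high than in both, at 5.59 FPKM against 2.56 in CD49f-low (limma adjusted p = 0.0142) and 1.42 in CD49f-neg (adjusted p = 0.000633). Tgm2, a transglutaminase, was also called higher there than in both, at 15.5 FPKM against 2.05 in CD49f-low and 4.003 in CD49f-neg. Efemp1 and Efemp2, further short fibulins, were called in none of the 3 limma comparisons, and in CD49f-high against CD49f-neg their adjusted p was 0.0707 and 0.393.

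Latent TGF-β binding proteins are proteins of microfibrils, and some of them, though not all, dock the growth factor there. Of 7 genes of this list, 3 were called lower and 1 higher in CD49f-high cells than in CD49f-neg. These counts were 3 and 1 in CD49f-low against CD49f-neg, and 2 and 2 in CD49f-high against CD49f-low. Ltbp2 averaged 2.07 FPKM in CD49f-high, 4.83 in CD49f-low and 23.5 in CD49f-neg, and its difference of -2.98 between CD49f-high and CD49f-neg (limma adjusted p = 7.10e-06) was larger in size than that of any of the 10 genes. Ltbp3 (18.3, 19.3 and 33.3 FPKM) dropped at the first step by -0.73 (adjusted p = 0.0150). Ltbp1 was highest in CD49f-low, like Fbln2, at 6.83 FPKM in CD49f-high, 20.2 in CD49f-low and 6.93 in CD49f-neg, and CD49f-low minus CD49f-neg was 1.42 (adjusted p = 0.00138). Ltbp4, at 67.0, 40.4 and 59.0 FPKM, was called in none of the 3. Among the ligands Tgfb2 was higher in CD49f-high cells than in CD49f-neg (7.08 against 3.09 FPKM, adjusted p = 0.00975) and Tgfb3 lower (10.3 against 13.3 FPKM, adjusted p = 0.0328).

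Of 8 measured genes of the wider fibulin, EMILIN and MFAP families, 2 were called lower and 2 higher in CD49f-high cells than in CD49f-neg. Hemicentin, Hmcn1, was lower (6.26 against 19.3 FPKM), as was Emilin3 (1.38 against 12.7 FPKM). Mmrn1, a multimerin of endothelium and platelets, was higher (3.42 against 0.0123 FPKM), as was Mfap3l (3.18 against 0.440 FPKM). In CD49f-low against CD49f-neg 0 of 8 were called in limma's test, and in CD49f-high against CD49f-low 2 were called lower and 2 higher. Of 7 measured ADAMTS and ADAMTS-like genes of microfibrils, 2 were lower and 0 higher in CD49f-high cells than in CD49f-neg. They were Adamts17 (5.90 against 24.1 FPKM, adjusted p = 0.00152) and Thsd4 (3.63 against 9.22 FPKM, adjusted p = 0.00369), both known to bind fibrillin. In CD49f-low against CD49f-neg 2 others, Adamtsl1 and Adamtsl4, were called lower and 0 higher. In CD49f-high against CD49f-low 3 of this list were called lower and 1, Adamtsl1, higher.

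Of 11 measured receptors of elastin and fibrillin, 2 were called lower and 3 higher in CD49f-high cells than in CD49f-neg. Itga9 (3.31 against 9.78 FPKM) and Itgb5 (21.4 against 34.98 FPKM) were lower. Itgb1, the common β1 subunit, was higher at 165 against 104 FPKM, Itga8 at 7.16 against 3.41 and Itga5 at 21.3 against 13.1. The row of Itga5 also carries another gene's symbol. Of the 11 receptors, 1 was called lower and 1 higher in CD49f-low against CD49f-neg. In CD49f-high against CD49f-low 1 was called lower and 0 higher. Of 5 measured elastin-degrading proteases 1 was called, Mmp2, a gelatinase that was lower at every step (46.6, 99.2 and 178 FPKM in CD49f-high, CD49f-low and CD49f-neg). Of 10 proteoglycans and other partners of microfibrils, 2 were lower and 2 higher in CD49f-high cells than in CD49f-neg. Decorin, Dcn, also a fibroblast marker, stood at 118 against 297 FPKM and Col16a1 at 53.7 against 115. Vitronectin, Vtn, stood at 14.2 against 0.0450 FPKM and matrix Gla protein, Mgp, which in arteries keeps elastic tissue from calcifying, at 5.58 against 1.00. Of the 10 partners, 3 were called lower and 1 higher in CD49f-low against CD49f-neg. In CD49f-high against CD49f-low 2 were called lower and 2 higher. The mural sum given above was, like Vtn, Mgp and Tgm2, highest in CD49f-high. The Schwann, keratinocyte, endothelial, skeletal muscle and cartilage sums also had their highest medians there. Between CD49f-low and CD49f-neg the mural sum was higher in CD49f-low. So were Vtn (0.369 against 0.0450 FPKM) and Mgp (1.94 against 1.00 FPKM), while Tgm2 was lower there without overlap. The part of any of these cell types in these differences was not tested.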

How the data were processed

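RNA was sequenced from 9 libraries, 3 per CD49f gate. By the labels' protocols, RNA was taken with Trizol straight after the sort and a NEBNext Ultra kit was used for the libraries. FPKM were deposited by the authors as 1 table, with a column per library. The tools named in the submitters' processing notes are FastQC, TopHat2 and StringTie, with the build GRCm38; versions and strand are not given in the sources used here. FPKM were not rescaled. The columns summed to 423745 to 543842 and the 10 most abundant rows took 47.5% to 61.3% of that, so a change in those rows shifts all others. Depth is not in the file. The spacing of low values put 1 FPKM over 1 kilobase at roughly 24.0 to 27.1 fragments, with only 35.3% to 45.8% of those values within 0.1 of a whole number. On that estimate the value with the fewest fragments, Mfap5 in 1 CD49f-neg library, rested on about 174.

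Rows reaching 1 FPKM in 3 or more libraries (20523) were tested on log2(FPKM + 1) over all 9 libraries with limma 3.58.1 (R 4.3.3; means per gate, empirical Bayes with trend). Benjamini-Hochberg adjustment covered every row tested, and a gene was called under 0.05. The method was tried on simulated data with noise independent between libraries, which leaves out the pairing by replicate number described below. The members and lists were chosen with earlier results of these data known. Named were all 10 members, Itga6, up to 4 called genes with the smallest adjusted p per pathway list, the 3 closest profiles per member and some of the most abundant markers. Loxl3, Itga5, Ltbp1, Ltbp4, Efemp1, Efemp2, Postn, Col6a3 and the markers at 0 were named after their values were seen. Alternatives were quantile normalization, median-of-ratios scaling, a pseudocount of 0.1, a filter of 5 FPKM or none, no variance trend, a block for the replicate number, only the 6 libraries of a comparison, and leaving out each library.

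The labels give no source for the replicate numbers. Deviations from the gate means had correlations of 0.252 to 0.520 between libraries of the same number (9 pairs) and of -0.453 to 0.118 between others, so by the data the numbers pair the libraries. Deviations cancel within a gate, so positive values for the same number push the others below them, and the gap between the ranges is partly built in. The main fit did not use this pairing. Coordinates are those of the table, exons are from GENCODE M21 and promoters from RefSeq (GRCm38.p6). Rows of Eln, Fbn1, Fbn2, Fbln1 and Emilin1 also cover other annotations of the same strand, whose type is not given here. Tables were made with pandas 2.3.3, numpy 2.4.6 and scipy 1.17.1 in Python 3.11.15, and plots with matplotlib 3.10.9.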

Additional observations from a re-analysis of the deposited data

How the results depend on the processing

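The calls of Eln, Mfap4, Mfap2, Fbln1 and Fbln5 held in all 17 alternatives of each comparison that called them in the main fit. Calls lost for Fbn1, Fbn2 and Fbln2 and those gained for Mfap2, Fbln2 and Emilin1 stand in the report. Members called numbered 6 to 8 for CD49f-high against CD49f-neg, 3 to 6 for CD49f-low against CD49f-neg and 5 to 7 for CD49f-high against CD49f-low. The replicate block, added to the fit, called 8, 6 and 7 members (7, 4 and 7 without it), with Fbln2 the one called higher, and 9 by the F test. It gained Emilin1, Mfap2 and Fbln2 and changed no other call of a member. All rows called also rose with the block, from 4541 to 6408, from 3160 to 5806 and from 3367 to 5309 in the same order of comparisons. For the F test with the block, the count over all rows was not taken.

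Signs turned only where no call was made. CD49f-low minus CD49f-neg of Fbln5 turned to -0.25 with median-of-ratios scaling and -0.14 with quantile normalization, and ranged from -0.12 (no CD49f-low replicate 3) over -0.022 (no CD49f-neg replicate 3) to 0.14 with a library left out. That of Mfap5 turned to -0.19 and -0.12 with the same scalings, and ranged from -0.36 (no CD49f-neg replicate 3) over -0.25 (no CD49f-low replicate 2) to 0.38. CD49f-high minus CD49f-neg of Mfap5 ranged from -0.037 (no CD49f-neg replicate 3) to 0.715 over those fits. CD49f-high minus CD49f-low of Fbn1 ranged from -0.0895 (no CD49f-low replicate 1) over -0.036 (no CD49f-high replicate 2) to 0.19 with a library left out. The cause was not tested.

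The background moved more. All rows called for CD49f-high against CD49f-neg were 4541, and 1911 with the filter of 5 FPKM, which tests fewer rows. For CD49f-low against CD49f-neg they were 3160, and 1358 with that filter, 2044 with quantile normalization, 5806 with the replicate block and 1614 to 3764 with a library left out. For CD49f-high against CD49f-low they were 3367, and 1323, 5309 with the block and 2201 to 3585 with a library left out. Scaling changed the split: 2623 higher and 537 lower for CD49f-low against CD49f-neg became 1118 and 1093 with median-of-ratios scaling and 1040 and 1004 with quantile normalization. For CD49f-high against CD49f-neg 2844 higher and 1697 lower became 2479 and 2232, and 2186 and 2315. For CD49f-high against CD49f-low 1216 higher and 2151 lower became 1614 and 1332, and 1577 and 1431. Median-of-ratios scaling moved the median of all rows in CD49f-low minus CD49f-neg to 0.0074 (0.21 as deposited) and in CD49f-high minus CD49f-low to -0.0145 (-0.15 as deposited). Relative to the median of all rows, Eln, Mfap4 and Fbn2 stood at -1.46, -1.86 and -1.09 in CD49f-low minus CD49f-neg, and Mfap2 at -0.87. With quantile normalization Fbn1 held 31.9% of the set in CD49f-high (31.1% as deposited) and Fbln2 3.25% in CD49f-neg (3.14%).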
